A study of Homo sapiens with 2 samples.

Results

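OTX2-bound chromatin was examined at the 7 semaphorin genes of classes 5, 6 and 7, which are SEMA5A, SEMA5B, SEMA6A, SEMA6B, SEMA6C, SEMA6D and SEMA7A. These are 7 of the 19881 protein-coding genes with a recorded GRCh38 position. They were taken by name, and every deposited OTX2 peak that overlapped a gene's GENCODE record, extended by 50 kb on either side, was assigned to that gene. This gave 157 of the 137412 peaks in the list. The cells were D283, an established human medulloblastoma line, grown as tumorspheres in serum-free medium with EGF and bFGF. The spheres were the OTX2+ control, with no treatment, and no OTX2 KD sample enters these data. Chromatin was immunoprecipitated with an OTX2 antibody in 1 library, and 1 input library without antibody was the background. After the authors removed duplicates, 61259377 ChIP fragments and 22521186 input fragments remained, a depth ratio of 2.72. There was no replicate, so the values below have no replicate error and no test between conditions was possible. Intervals on peak heights and peak counts are exact Poisson 95% intervals, which cover counting error only. Binding is all that was measured here, and the level of the genes' transcripts was not analysed.

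OTX2 is a homeodomain transcription factor of the developing forebrain, midbrain and cerebellum, and its homeodomain type is known to prefer the sequence TAATCC. Semaphorins are guidance proteins that steer axons and migrating cells, chiefly by binding plexins. Class 5 members are transmembrane proteins with thrombospondin repeats, class 6 members are transmembrane proteins without them, and SEMA7A is held at the membrane by a lipid anchor. In the cerebellum, SEMA6A and its receptor PLXNA2 are known for their role in the migration of granule cells.

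Promoter sequence was read for 5 of the 7 members from the RefSeq windows in GRCh38, each 300 bp long and opening 250 bases before a transcript start. SEMA6A and SEMA6B had no entry. Below are the stretches before a start that contain no annotated exon, written 5′ to 3′ on the strand of the gene in lower case. They were chosen because they show the most strongly bound gene start (SEMA6C), the canonical start of the gene with the most peaks (SEMA6D), the start of the gene with the fewest (SEMA5A), and the other member window that held a searched motif (SEMA5B). Capitals mark TAATCC on either strand, so that GGATTA is a TAATCC on the opposite strand. The SEMA6C stretch is chr1:151146632-151146792 on the minus strand, the SEMA6D stretch chr15:47717255-47717401 on the plus strand, the SEMA5A stretch chr5:9546076-9546169 on the minus strand, and the SEMA5B stretch chr3:122993274-122993488 on the minus strand.
SEMA6C: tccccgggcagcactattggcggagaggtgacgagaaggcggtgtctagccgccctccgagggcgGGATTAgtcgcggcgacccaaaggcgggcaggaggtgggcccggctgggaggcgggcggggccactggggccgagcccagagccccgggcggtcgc
SEMA6D: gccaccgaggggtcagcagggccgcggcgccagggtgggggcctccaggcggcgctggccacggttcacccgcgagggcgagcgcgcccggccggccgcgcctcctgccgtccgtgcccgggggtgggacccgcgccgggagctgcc
SEMA5A: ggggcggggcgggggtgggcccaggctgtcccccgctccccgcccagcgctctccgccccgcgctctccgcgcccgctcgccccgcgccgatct
SEMA5B: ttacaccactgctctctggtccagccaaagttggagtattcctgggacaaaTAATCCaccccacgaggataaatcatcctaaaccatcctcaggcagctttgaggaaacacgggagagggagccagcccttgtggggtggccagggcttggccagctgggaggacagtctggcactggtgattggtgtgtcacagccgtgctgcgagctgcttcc

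Both strands of each whole window were searched for TAATCC and TAATCT, and a window counted once however many matches it held. Of 35116 windows in all, 12.8% held at least 1 match (6.36% TAATCC and 7.17% TAATCT), against 2 of the 10 windows of the members. The share was 13.3% among windows with a peak and 12.5% among windows without. In SEMA6C the motif lay at chr1:151146722-151146727, its first base 96 bp before the start, and the summit of the OTX2 peak there was 3 bp away. In SEMA5B the motif lay at chr3:122993432-122993437, 199 bp before an internal start at 122993238, and no peak covered it, the nearest peak being 4.16 kb from that start. Neither motif was found in the windows of SEMA5A, SEMA6D and SEMA7A. A peak lay on 6 of the 10 member windows, from 4 members, while 30.0% of all windows carried one. Windows of neighbouring SEMA6D starts shared a peak. The peak on a SEMA7A window was low, with a fold enrichment over local input of 2.71. A match is a run of letters, and occupancy of that run was not measured.

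At the starts, 6 of the 7 members had a peak in the gene start window, which ran from 5 kb before the gene start to 2 kb after it, and SEMA5A had none. The gene start was taken as the 5′ end of the whole record. Over all protein-coding genes the share with such a peak was 57.2%. The same 6 members had a peak within 1 kb of an annotated transcript start, against 56.8% of protein-coding genes. All 7 had a peak in the gene record, against 69.5%, and 6 of 7 had one in the 50 kb flanks, against 91.9%. The median record was 120 kb long among the members and 27.6 kb among all protein-coding genes. The shares were not adjusted for record length or for the number of starts. The members carry 59 distinct transcript starts, of which 29 (49.2%) had a peak within 1 kb, against 40.8% of the 145757 distinct starts of all protein-coding genes. Neighbouring starts of a gene often share a peak. By position, 13 of the 157 peaks lay at a transcript start (overlapping the 1 kb on either side of one), 104 elsewhere in the gene body, 27 in the upstream flank and 13 in the downstream flank. A single summit, in the first exon of SEMA6A, fell in an annotated exon of its gene.

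Peak height was read as fragments at the summit. The deposited pileups were whole multiples of 0.735, within a tolerance of 0.02 steps in all peaks, and 49.8% of them were odd multiples, so 1 step was taken as 1 fragment. That step is 2 times the ratio of input to ChIP fragments (0.368), and the reason for the factor is not given in the sources used here. The median member peak had 58.0 fragments (pileup 42.6), a fold enrichment over local input of 5.91 and a length of 479 bp. Over the whole list these medians were 53.0 fragments (pileup 39.0), 6.10-fold and 440 bp. A fold enrichment of at least 10 was reached by 46 member peaks (29.3%), and by 26.3% of all peaks. Upstream flank peaks had the highest medians, 80.0 fragments and 7.27-fold, and downstream flank peaks had 39.0 fragments and 5.45-fold. Gene body peaks had a median of 54.0 fragments and 5.93-fold. Transcript start peaks had a median of 43.0 fragments and 4.66-fold. With SEMA6D left out, the 16 remaining body peaks had a median of 34.5 fragments and the 7 downstream peaks 39.0. The 8 transcript start peaks then had 41.0 and the 21 upstream peaks 80.0. Body peaks thus fell below both downstream and transcript start peaks in fragments. In fold, the body peaks (5.20) then lay between the transcript start peaks (4.30) and the downstream peaks (5.45).

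**Figure D1:**
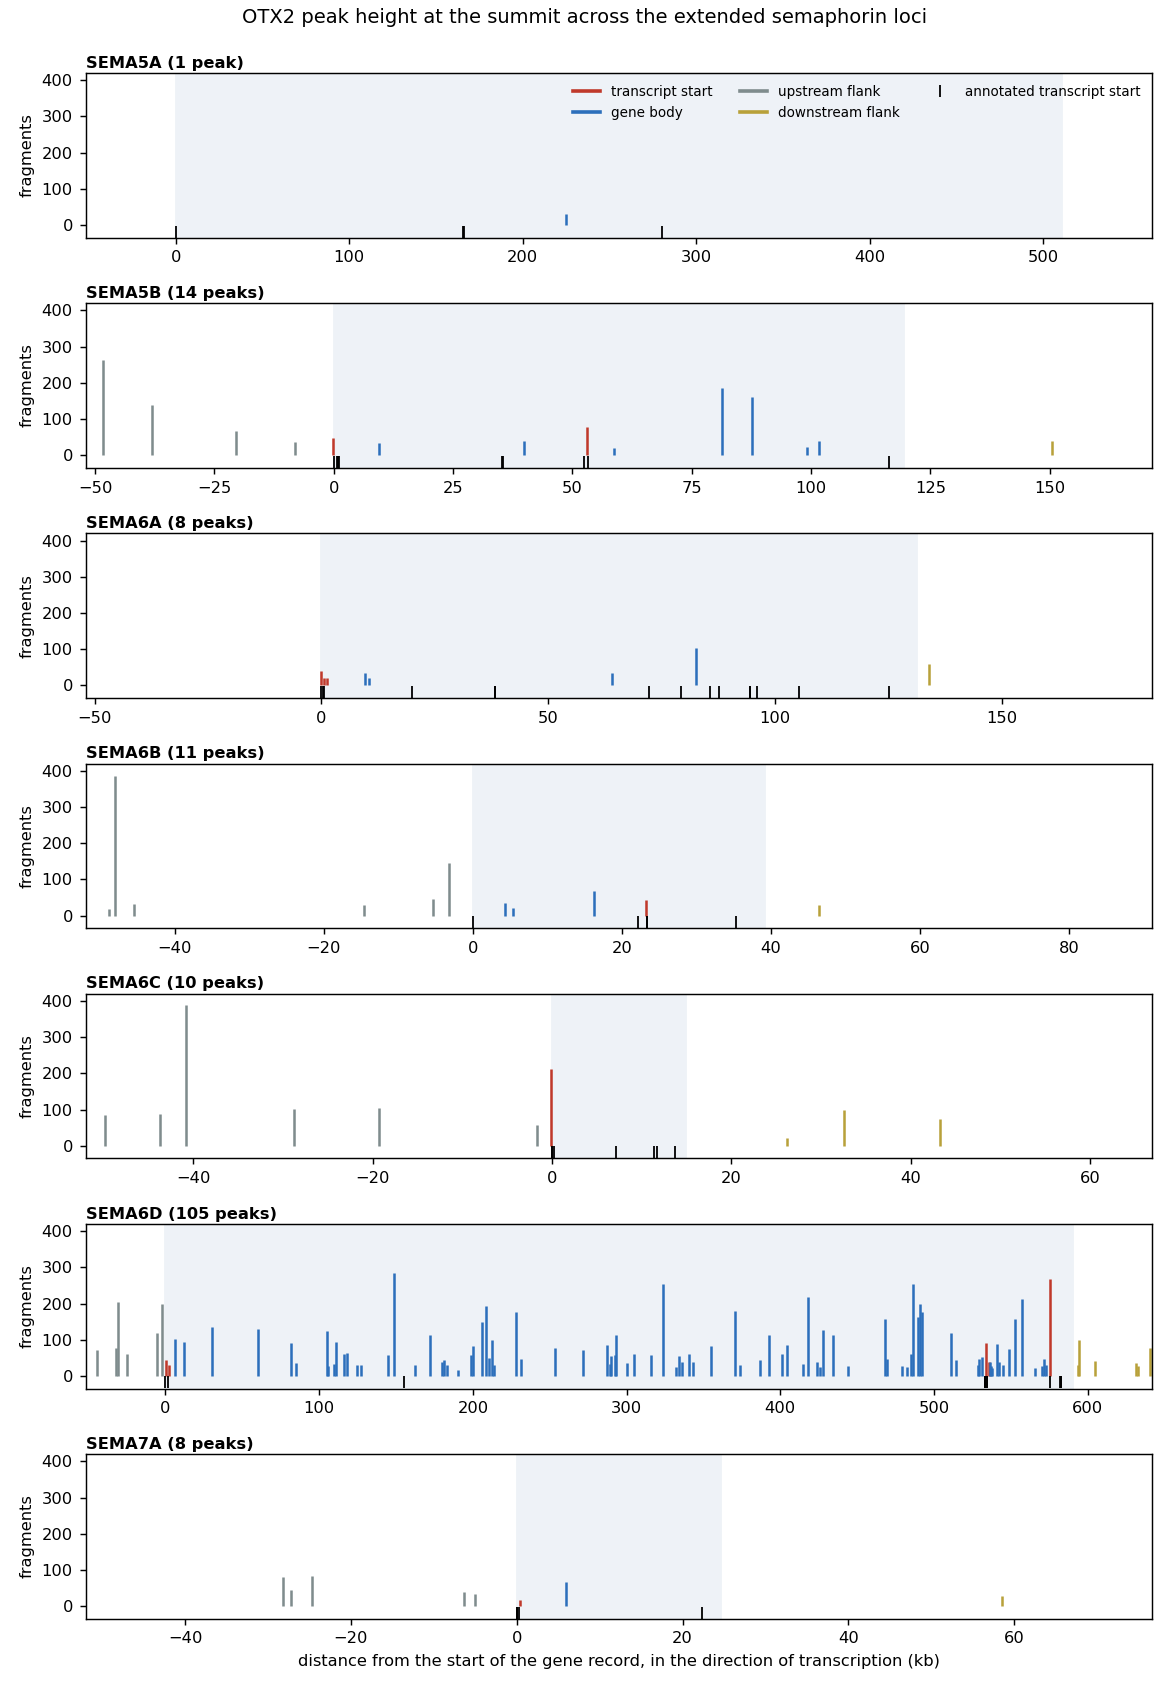
Height of each OTX2 peak (fragments at the summit, vertical axis) against distance from the start of the gene record in the direction of transcription (kb, horizontal axis), 1 panel per gene with its own horizontal scale. Shading marks the gene record, black ticks the annotated transcript starts, and line colour the class of the peak. The 105 lines of SEMA6D fill its panel, while SEMA5A has 1 line of 30 fragments.

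The number of peaks differed widely between members. SEMA6D had 105, which is 66.9% of all 157, and SEMA5A had 1, although both records exceed 500 kb. SEMA5B had 14, SEMA6B 11, SEMA6C 10, SEMA6A 8 and SEMA7A 8. Per 100 kb of extended record, the members together had 7.37 peaks (6.26 to 8.62), and 3.61 without SEMA6D. These values pool the peaks over the summed lengths, so that the long SEMA5A locus weighs heavily in them. By single genes, the median protein-coding gene had 5.12 (quartiles 2.73 and 7.89) and the median member 6.42. In descending order the density was 15.2 peaks per 100 kb in SEMA6D (12.4 to 18.4), 8.70 in SEMA6C (4.17 to 16.0), 7.90 in SEMA6B (3.95 to 14.1), 6.42 in SEMA7A (2.77 to 12.6), 6.38 in SEMA5B (3.49 to 10.7), 3.46 in SEMA6A (1.49 to 6.82) and 0.164 in SEMA5A (0.00414 to 0.912). Each gene's interval overlapped that of its neighbour in this order, except for the last step from SEMA6A to SEMA5A. The SEMA6D interval lay above those of SEMA5B, SEMA6A and SEMA5A. Such intervals take each peak as an independent count, although peaks stood close together in places. Of all protein-coding genes, 98.0% were less dense than SEMA6D, 80.4% less than SEMA6C, 75.1% less than SEMA6B and 62.6% less than SEMA7A. The shares were 62.3% for SEMA5B, 32.1% for SEMA6A and 5.92% for SEMA5A. By density in the record alone, without flanks, they were 88.2% for SEMA6D, 61.7% for SEMA6C, 76.4% for SEMA6B and 68.7% for SEMA7A. For SEMA5B, SEMA6A and SEMA5A they were then 66.0%, 53.9% and 30.5%.

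**Figure D2:**
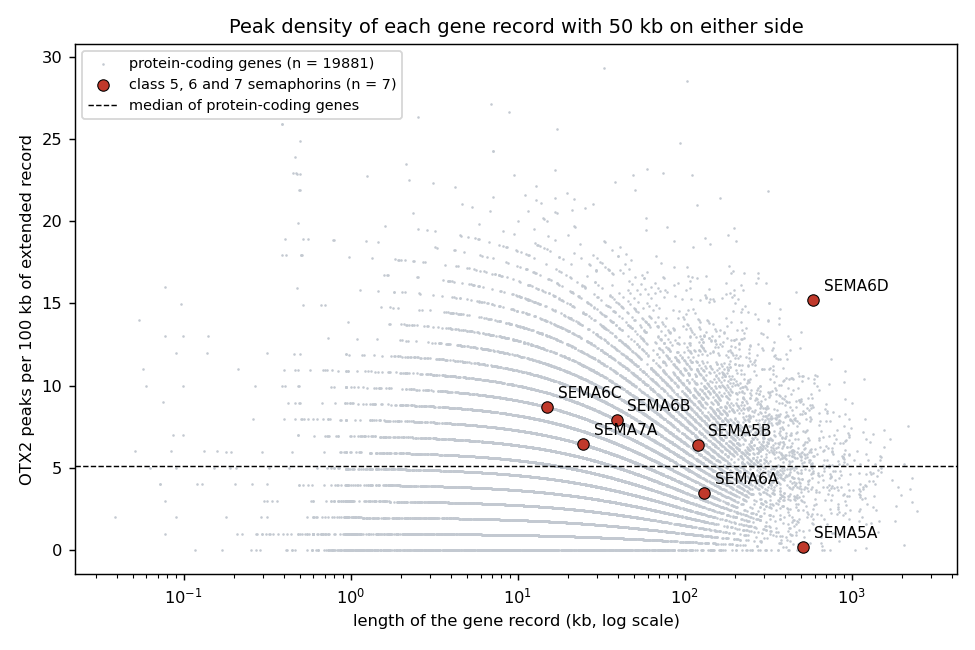
OTX2 peaks per 100 kb of extended gene record (vertical axis) against the length of the gene record (kb, log scale) for 19881 protein-coding genes (grey) and the 7 members (red). The dashed line is the median gene at 5.12. SEMA6D sits far above it at 15.2 and SEMA5A near 0, at similar lengths.

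SEMA6D, a transmembrane class 6 semaphorin known to act through plexin A receptors, lies on the plus strand at chr15:47184101-47774228 and spans 590 kb. Its record held 93 peaks, 5 at transcript starts and 88 in the rest of the gene, and its flanks held 6 upstream and 6 downstream. By the number of peaks in the record it ranked 11 among 19881 protein-coding genes. Among the 322 records of 500 kb or more, the median was 36.0 peaks (quartiles 25.0 and 53.0, highest 160), and 12, SEMA6D included, had at least as many as SEMA6D. Per length SEMA6D had 15.8 peaks per 100 kb of record against a median of 4.91 in these long genes, and no other of them reached its density. Peaks covered 8.45% of the extended locus.

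Binding at SEMA6D ran along the whole gene. Each 50 kb bin of the record held at least 3 peaks, and the bin from 500 to 550 kb held 14. Summits stood a median of 3.38 kb apart, with a longest spacing of 30.1 kb. On the longest transcript, SEMA6D-208, intron 1 (228 kb) held 32 peaks, intron 2 (58.0 kb) 3, intron 3 (130 kb) 22 and intron 4 (159 kb) 36. In density these are 14.0, 5.17, 16.9 and 22.7 peaks per 100 kb. The canonical transcript, SEMA6D-207, starts at 47717505, which is 533 kb into the record, within a group of neighbouring starts. Before this group the record had 14.4 peaks per 100 kb (77 peaks) and from it to the end 28.0 (16 peaks). No interval was computed for either density, and the latter rests on few peaks. The densest 20 kb held 11 summits, from 529 to 545 kb, around those starts, with heights of 22 to 92 fragments.

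**Figure D3:**
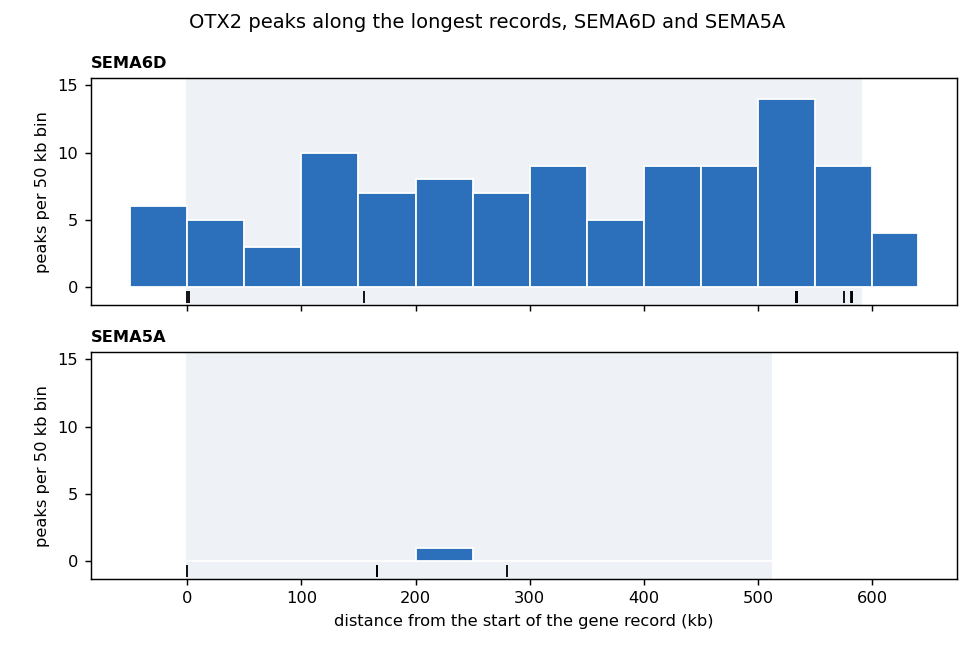
Number of OTX2 peaks in successive 50 kb bins (vertical axis) along SEMA6D and SEMA5A against distance from the gene start (kb). Shading marks the gene record and ticks the transcript starts, and the last bin drawn is cut by the end of the extended locus. SEMA6D has peaks in every bin, with 14 in the highest, and SEMA5A has a peak in 1 bin.

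The heights along SEMA6D ranged from 17 to 284 fragments (median 59.0, pileup 43.4), with 17 peaks of at least 150 fragments. The tallest peak, chr15:47331935-47332985 in intron 1, had 284 fragments (252 to 319), a pileup of 208.82 and a fold enrichment of 24.1. The tallest at a transcript start, chr15:47758722-47759712, had 269 fragments (238 to 303), a pileup of 197.79 and 24.8-fold enrichment. It lay 455 bp before the start of SEMA6D-213, a protein-coding transcript that begins inside the gene. At the canonical start, where the printed SEMA6D stretch ends 104 bases before the start, the peak chr15:47717007-47718418 had 92 fragments (74.2 to 113), a pileup of 67.65 and 12.8-fold enrichment. Its summit was 521 bp past that start. The start of the record itself was weaker, with 45 fragments and 5.03-fold. Next to it, 2142 bp upstream, stood a flank peak of 199 fragments (172 to 229) and 18.9-fold, and the tallest flank peak, 31023 bp upstream, had 203 fragments (176 to 233), a pileup of 149.26 and 23.5-fold. The tallest downstream flank peak had 98 fragments and 9.13-fold. In SEMA6D 4 peaks of at least 150 fragments stood within 10 kb, from 487 to 492 kb. For every one of the 105 peaks the nearest transcript start of any protein-coding gene (the nearest coding start below) was one of SEMA6D's own.

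SEMA5A, a class 5 semaphorin that binds plexin B3, lies on the minus strand at chr5:9035033-9546075 and spans 511 kb. Its single peak, chr5:9320870-9321129 in intron 4, had 30 fragments (20.2 to 42.8), a pileup of 22.06, 4.62-fold enrichment and a q-value of 8.26 on the −log10 scale. It stood 225 kb inside the gene and 55440 bp from the nearest of its 4 transcript starts. Of the 322 long records, 8 held at most 1 peak and 4 held none. The peak was flanked by stretches of 863 kb and 641 kb without a peak, where the median gap between peaks in the list was 8.69 kb. Among 137306 gaps, 62 were at least as long as the former and 103 as long as the latter. Sparse binding reached beyond the gene, with 23.2 peaks per Mb within 5 Mb on either side, against 47.8 to 66.7 around the other members and 50.1 over chromosome 5. Local input, which is known only at called peaks, had a median of 4.45 over the peaks within these 5 Mb. Over all peaks the median was 5.00. Its part in the sparse binding was not tested.

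SEMA5B, the other class 5 member, lies on the minus strand at chr3:122909082-123028605, with 11 transcript starts. It had 2 transcript start peaks, 7 in the gene body, 4 upstream and 1 downstream. At the gene start the peak had 47 fragments (34.5 to 62.5), a pileup of 34.56 and 3.95-fold, below the median peak in fold. A higher transcript start peak, chr3:122975366-122975869, lay 201 bp from the start of SEMA5B-205, 53034 bp into the gene, with 78 fragments (61.7 to 97.3), a pileup of 57.35 and 11.7-fold. In the body, an intron 3 peak at chr3:122947017-122947540 had 186 fragments (160 to 215), a pileup of 136.76 and 15.3-fold, and an intron 4 peak at chr3:122940628-122941218 had 160 fragments (136 to 187) and 23.8-fold. The highest fold enrichment of any member peak stood 48272 bp upstream, at chr3:123076179-123077559, with 264 fragments (233 to 298), a pileup of 194.11 and 36.6-fold. That summit lies within the record of PDIA5, a protein disulfide isomerase, whose nearest start is 9.53 kb away. Another upstream peak, of 139 fragments, was 0.273 kb from a PDIA5 start. Of the 14 peaks, 11 had a SEMA5B start as the nearest coding start. The only downstream flank peak had 39 fragments and 5.45-fold.

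SEMA6A, the class 6 member known from cerebellar granule cells, lies on the minus strand at chr5:116443555-116574823. It had the second lowest density, and its 8 peaks held 3 at transcript starts, 4 in the body, 1 downstream and none upstream. The 3 start peaks clustered at the gene start and were low. The one with its summit 26 bp before the canonical start had 39 fragments (27.7 to 53.3), a pileup of 28.68 and 5.95-fold, and the others had 21 fragments at 3.29-fold and 20 fragments at 3.15-fold. All 3 start peaks also had a transcript start of a non-coding gene within 1 kb. The 12 starts inside the gene had no peak within 1 kb. The tallest peak, chr5:116491770-116492644 in intron 6, had 103 fragments (84.1 to 125), a pileup of 75.73 and 15.4-fold, and was the only peak of the gene to reach 10-fold. The downstream flank peak had 59 fragments and 5.55-fold. SEMA6A starts were the nearest coding starts for all 8.

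SEMA6B, another class 6 transmembrane protein, lies on the minus strand at chr19:4542593-4581776, and its canonical transcript starts 22092 bp inside the record. No peak lay within 1 kb of the record start. The nearest, chr19:4584115-4585347, had its summit 3234 bp upstream, with 146 fragments (123 to 172), a pileup of 107.35 and 18.1-fold. Its transcript start peak, chr19:4558487-4559131, lay 89 bp from the start of SEMA6B-205, close to the canonical one, and had 43 fragments (31.1 to 57.9), a pileup of 31.62 and 4.66-fold. The tallest body peak had 67 fragments and 10.1-fold. The tallest in the locus, chr19:4629229-4630127, stood 48020 bp upstream with 385 fragments (347 to 425), a pileup of 283.08 and 28.4-fold, and the nearest coding start, 9.72 kb away, was that of another gene. The downstream flank peak, of 29 fragments, was 0.0530 kb from a start of PLIN5, a lipid droplet protein. Among the 11 peaks, 7 had a SEMA6B start as the nearest coding start.

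SEMA6C, the shortest member at 14.9 kb, lies on the minus strand at chr1:151131685-151146631. It had the highest transcript start fold enrichment of the 7. The start peak, chr1:151146113-151147048, had its summit 99 bp before the canonical start, within the printed SEMA6C stretch, with 211 fragments (183 to 241), a pileup of 155.14, 26.6-fold enrichment and a q-value of 167 on the −log10 scale. In fold it exceeded 97.4% of all peaks. A transcript start of a non-coding gene also lay within 1 kb of this peak. A flank peak 1654 bp upstream had 58 fragments and 7.27-fold. No peak lay in the rest of the gene body, and 9 of the 10 peaks of the locus were in the flanks, 7 of them inside the record of another coding gene. The tallest peak of all 157, chr1:151187040-151187900, was 40849 bp upstream with 390 fragments (352 to 431), a pileup of 286.76 and 33.0-fold. That summit is in VPS72, a chromatin remodelling subunit, and 2.66 kb from its start. Peaks also stood within 1 kb of starts of LYSMD1 and SCNM1 (103 fragments, 8.53-fold), TMOD4 (101 fragments, 7.26-fold) and VPS72 (87 fragments, 5.91-fold, and 86 fragments, 4.94-fold). The tallest downstream peak had 98 fragments and 12.7-fold. SEMA6C starts were the nearest coding starts for 4 of the 10. Local input at these peaks was higher than at other members, with a median of 7.86 against 3.99 to 5.38. Over the peaks within 5 Mb around the gene it was 7.51. Its part in the heights was not tested.

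SEMA7A, which binds PLXNC1 and integrins, lies on the minus strand at chr15:74409289-74433958. Its start peak, 401 bp past the start of the record, was the lowest of the locus in height, with 17 fragments (9.90 to 27.2), a pileup of 12.5, 2.71-fold and a q-value of 1.90 on the −log10 scale. Binding in the body was 1 peak in intron 1, of 66 fragments (51.0 to 84.0), a pileup of 48.53 and 9.93-fold. Upstream, 4988 bp from the start, a peak had 33 fragments and 5.07-fold, and the tallest of the locus, 24694 bp upstream, had 82 fragments (65.2 to 102), a pileup of 60.29 and 4.71-fold. That summit is in UBL7, a ubiquitin-like protein gene, and 2 further upstream peaks, of 45 and 80 fragments, stood within 1 kb of UBL7 starts. The downstream peak had 27 fragments and 2.32-fold. No peak reached 10-fold, and 4 of the 8 had a SEMA7A start as the nearest coding start.

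**Figure D4:**
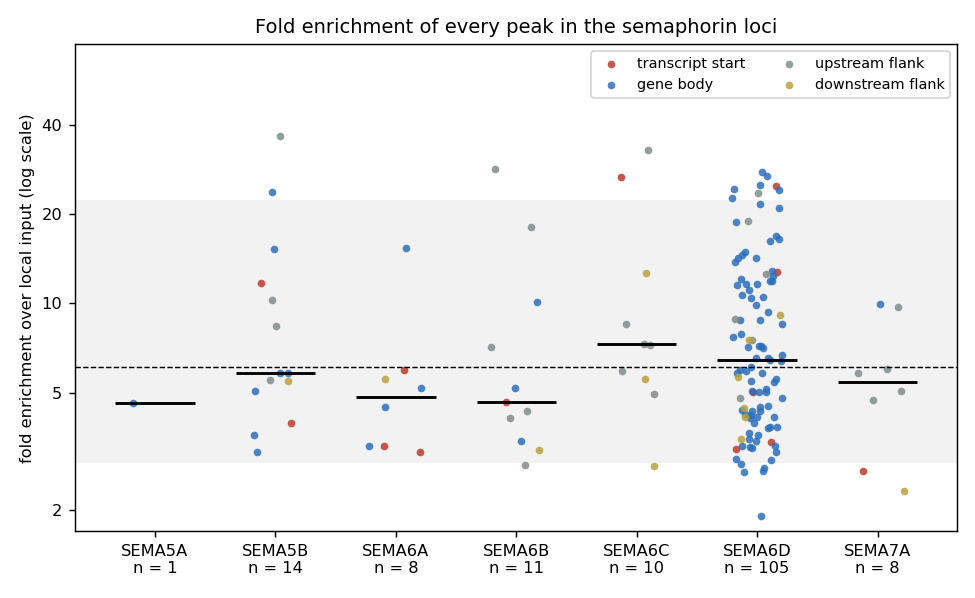
Fold enrichment over local input (log scale, vertical axis) of each of the 157 peaks by gene. Colour gives the class, black bars the median of each gene, the dashed line the median of all peaks (6.10) and the grey band their 5 to 95 percent range (2.91 to 22.1). SEMA5B, SEMA6B, SEMA6C and SEMA6D have points above the band, and SEMA5A, SEMA6A and SEMA7A have none.

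The 5 tallest peaks of the 7 loci were those of SEMA6C (390 fragments), SEMA6B (385), SEMA6D (284 and 269) and SEMA5B (264). Of these, 3 were upstream flank peaks more than 40 kb from the member's start, and in all 3 another gene's start was nearer. Over the 7 genes, 140 of 157 peaks had a start of the member as the nearest coding start, but among the 40 flank peaks only 23 did, 12 of them at SEMA6D. Altogether 11 flank peaks lay in the record of another coding gene and 8 within 1 kb of one of its starts. For such a peak, the gene it belongs to cannot be told apart from position.

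The other semaphorin classes were counted in the same way. Class 3, the secreted semaphorins, had a peak in the gene start window in 5 of 7 genes, beside 57.2% of all protein-coding genes, with 91 peaks in the extended loci, a median of 5.81 peaks per 100 kb and a best fold near a start of 7.72. Class 4, further transmembrane semaphorins, had one in 4 of 6, with 64 peaks, a median of 6.16 and a best fold of 8.16. For classes 5 to 7 the median was 6.42 and the best fold 26.6, at SEMA6C. Class 3 spanned 1.37 to 8.21 peaks per 100 kb and class 4 spanned 3.79 to 12.3, so SEMA6D and SEMA5A lay outside the range of the other classes on either side. These groups were not tested against each other.

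Among the 8 receptors named for classes 5 to 7, 3 had a peak near the gene start (37.5%), beside 57.2% of all protein-coding genes. Near any transcript start 5 of the 8 had a peak, beside 56.8%, and in the record 6 did, beside 69.5%. PLXNA2, a SEMA6A receptor, had 51 peaks in its extended locus at 15.8 per 100 kb. Its best peak near the gene start had 109 fragments and 13.1-fold. ITGA1, an integrin alpha chain, had 19 peaks and 12.0-fold near its start, and PLXNC1, the plexin of SEMA7A, had 17 and 2.86-fold. PLXNA4 had 24 peaks, ITGB1 12 and PLXNA1 6, each with none near the gene start. PLXNA4 and ITGB1 did have a peak within 1 kb of another of their transcript starts. PLXNA3 and PLXNB3, both on the X chromosome, had no peak. The wider list of 33 plexins, coreceptors and effectors includes these 8. In it, 18 had a peak near the gene start (54.5%), 25 near any transcript start and 29 in the record. Over all protein-coding genes the shares were 57.2%, 56.8% and 69.5%. Median record length was 119 kb in the wider list and 139 kb in the 8 receptors, against 27.6 kb over all protein-coding genes. These shares were not adjusted for length. The median density of the wider list was 5.89 peaks per 100 kb. The highest fold enrichments near a gene start were those of MICAL1, an actin oxidising enzyme downstream of plexins (130 fragments, 13.8-fold), NRP1, a coreceptor of class 3 semaphorins (92 fragments, 13.7-fold), and PLXNA2.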

How the data were processed

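The OTX2 ChIP and input libraries of D283 tumorspheres (1 each, grouped by label) were mapped by the authors to GRCh38 with bowtie2 2.2.4, and peaks were called by MACS2 2.1.0.20140616 at a q-value cutoff of 0.05, with 1 fragment kept per position. The pileup that the authors deposited is the coverage signal at a summit, after the larger library was scaled towards the smaller in peak calling. Their deposited fold enrichment divides the pileup by local input after 1 is added to both, as a ratio, and each peak has a deposited −log10 p and q. The authors state that blacklisted regions were masked.

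Gene positions were the GRCh38 positions recorded in GENCODE release 44. A peak counted with at least 1 bp of overlap. Its class was transcript start, otherwise gene body, otherwise flank. Local input was computed as (pileup + 1) / fold − 1, with a floor of 3.98 where 26.4% of all peaks lay. Counts were set beside those of all protein-coding genes, with no test. Named were the 7 members, the receptors, the 3 pathway genes with the highest fold enrichment near the gene start, coding genes with a start within 1 kb of a member peak, and the tallest peaks of each class. Single further peaks were named after their values were seen. The members and lists were chosen with earlier results of these data known. Alternatives were stricter peak thresholds, summit overlap, and other windows, flanks and gene records. Counting was tested on simulated data. The software was numpy 2.4.6, pandas 2.3.3 and scipy 1.17.1 under Python 3.11.15, with figures by matplotlib 3.10.9.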

Additional observations from a re-analysis of the deposited data

How the results depend on the processing

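Of 45 alternatives, 38 left the count or value within 1.5 times of, or within the counting error of, the reported one. That margin is wide for small counts. Members with a peak within 1 kb of a transcript start fell from 6 to 5 at a −log10 q of at least 5. At 5-fold or more they fell to 4, and members with a peak in the gene start window fell from 6 to 5. Keeping only peaks of 5-fold enrichment or more, the peaks in the loci fell from 157 to 101, the transcript start peaks from 13 to 6, the gene body peaks from 104 to 67 and the density from 7.37 to 4.74 per 100 kb. SEMA5A then had 0 peaks and SEMA6D 68. Over the whole list, 37.2% of peaks lay below 5.01-fold, so the cutoff removes a large share of peaks everywhere. The density of the median gene was not recomputed at this cutoff. Counting transcript start peaks from 5 kb before to 2 kb after any start gave 24. Flank peaks numbered 17 with flanks of 20 kb and 77 with flanks of 100 kb, by construction. Alternatives using canonical starts and RefSeq records (4 values) were chosen after seeing the data. No paired analysis was possible because each condition had 1 library. The input library was shallower than the ChIP library, which limits the precision of each fold enrichment, and low peaks such as the SEMA7A start (17 fragments) rest on few fragments.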
